A study of Mus musculus with 8 samples.

Results

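The expression of 10 inflammasome genes was followed in mouse bone marrow-derived macrophages (BMDMs) with and without the transcriptional coactivator gene Ncoa6. They were listed by name and role, with earlier results of these data known, and the rule itself uses no measured value: the sensor Nlrp3, the NAIP/NLRC4 sensors Nlrc4, Naip2, Naip5 and Naip6, the DNA sensor Aim2, the adaptor Pycard, the caspases Casp1 and Casp4, and the pore-forming gasdermin Gsdmd. They make up 10 of the 50615 genes in the count table, and all 10 passed the filter on low counts, which left 17625 genes for testing.

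Inflammasomes are assemblies in the cytosol through which a myeloid cell turns a danger signal into the release of IL-1 family cytokines and a lytic cell death called pyroptosis. A sensor protein recruits the adaptor ASC, the product of Pycard, or the caspase directly, and caspase-1 then cleaves the cytokine precursors and gasdermin D, whose fragments open pores in the plasma membrane. In macrophages, LPS acts as the priming signal that raises transcription of some of these genes, and crystals of monosodium urate (MSU), the deposits of gout, act as the activating signal for NLRP3.

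BMDMs were derived from tibia and femur marrow of mice labelled C57BL/6 by 6 days of culture in M-CSF (20 ng/ml), a growth factor that turns marrow precursors into macrophages. All mice carried the floxed Ncoa6 gene: the Ncoa6 fl/fl LysM CRE mice (Ncoa6-KO) also express Cre from the Lyz2 (LysM) locus, so that deletion is limited to cells in which this myeloid gene is active. The controls are Ncoa6 fl/fl mice without Cre (Ncoa6-sufficient, titled WT in the labels), and no strain with Cre alone was included. Cells stayed in medium, or received 100 ng/ml LPS during 4 h followed by 200 µg/ml MSU during 2 h. Each of the 4 groups had 2 poly(A) RNA libraries from different mice, 8 in all, and p-values therefore rest on the spread between 2 libraries a group. LPS and MSU were always given together, so their effects cannot be told apart, and no group received LPS alone.

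Expected counts summed to 25281955 to 33673552 per library. Values below are normalized counts, that is, counts scaled by edgeR's TMM factors to the mean library size. The 10 genes together took 0.0447 to 0.0539% of all counts in medium and 0.174 to 0.188% after LPS + MSU. The targeted gene Ncoa6, counted over the whole gene and not over the floxed exon, was at 1515 and 1405 in Ncoa6-sufficient and 784 and 622 in Ncoa6-KO cells in medium, and 1297 and 1173 against 563 and 526 after LPS + MSU. All 8 libraries matched their labels, and the edgeR adjusted p for Ncoa6 was 0.00236 and 0.00189 (0.0578 in medium without Ncoa6-sufficient library 1). The 8 macrophage markers were expressed in every library. Their summed level was lower in Ncoa6-KO than in Ncoa6-sufficient BMDMs in both conditions. It was 248932 to 288002 against 388720 to 456129 in medium and 366954 to 393408 against 507971 to 577703 after LPS + MSU. The gene Lyz2, at which Cre was inserted, is the most abundant of these markers and carried much of this (111994 to 127555 against 209893 to 272098 in medium). Adgre1, Csf1r, Itgam and Fcgr1 were also lower in both conditions without overlap (Fcgr1 697 to 1213 against 3033 to 4911 in medium). Cd14 was so in medium only and Mertk after LPS + MSU only, and Cd68 overlapped in both. Of all genes tested, 24.5% in medium and 22.7% after LPS + MSU were lower without overlap. Of the markers of other cells, Nkg7, Ncr1, Emcn and Mcpt4 were at 0 in all libraries, and summed levels of the T and NK cell list and of the erythroid and mast cell list never passed 2.77. The 8 neutrophil markers summed to 491 to 620 in medium and were higher in every stimulated library, at 839 to 1042. S100a9 (142 to 167 and 250.4 to 384), S100a8 (81.7 to 99.1 and 145 to 166), Ngp (97.3 to 164 and 222 to 295) and Camp (9.73 to 11.3 and 28.9 to 45.7) showed the same order. Mmp8 (131 to 203 and 90.2 to 155), Mpo (4.87 to 19.3 and 4.16 to 13.1) and Elane (0 to 4.39 and 0 to 1.40) did not, and Ly6g reached at most 1.39. The 6 dendritic cell markers summed to at most 18.1 in medium and to 133 to 208 after LPS + MSU, the 4 B cell markers to 27.2 to 50.3 and 4.20 to 24.9, and the 4 stromal markers to 68.1 to 211 and 129 to 482. The 3 endothelial markers summed to 360.0 to 371 in Ncoa6-KO and 523 to 698 in Ncoa6-sufficient BMDMs in medium, and to 3009 to 5361 and 6360.4 to 6794 after LPS + MSU, almost all from Kdr. Several of these list levels moved with genotype or stimulus, and their part in the results below was not tested.

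LPS + MSU changed nearly all of the inflammasome genes, and in opposite directions within the NAIP/NLRC4 arm. In Ncoa6-sufficient BMDMs, 8 of the 10 genes were higher after LPS + MSU (adjusted p under 0.05, edgeR's quasi-likelihood test with Benjamini-Hochberg adjustment), against 24.7% of all genes tested, and 55.2% of all genes were called in either direction. The rise ran from 1.67-fold for Naip2 to 17.1-fold for Nlrp3. Nlrc4 alone was lower, against 30.5% of all genes, and Pycard did not pass the test. In Ncoa6-KO BMDMs the same 8 genes were higher, against 25.2% of all genes, and Nlrc4 and Pycard were lower, against 27.9% (53.1% in either direction). The libraries of both culture conditions did not overlap for these genes: in Ncoa6-sufficient BMDMs 8 of 10 lay higher after LPS + MSU and 1 lower, against 35.1% and 43.5% of all genes, and in Ncoa6-KO BMDMs 8 lay higher and 2 lower, against 35.4% and 41.1%. The median log2 fold change of the 10 genes was 1.46 in Ncoa6-sufficient and 1.57 in Ncoa6-KO cells, beside -0.12 and -0.073 for all genes tested.

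Between genotypes, 1 of the 10 genes passed the test, and it was the same gene in both conditions. Nlrc4 was lower in Ncoa6-KO BMDMs in medium, where 1.88% of all genes were called, 1.3% lower and 0.573% higher, and after LPS + MSU, where 3.59% were called, 1.63% lower and 1.96% higher. In medium all 10 log2 fold changes were negative, with a median of -0.20 beside -0.032 for all genes tested, and after LPS + MSU 7 of 10 were negative, with a median of -0.090 beside 0.00039. Both Ncoa6-KO libraries lay below both Ncoa6-sufficient libraries for 5 of the 10 genes in medium (Nlrp3, Nlrc4, Casp1, Casp4 and Gsdmd), against 24.5% of all genes, and for 4 of the 10 after LPS + MSU (Nlrc4, Pycard, Casp4 and Gsdmd), against 22.7%. None of the 10 had both Ncoa6-KO libraries above, which was the case for 18.6% and 24.7% of all genes. In these bulk libraries, fewer cells that express a gene and less of its RNA per cell cannot be told apart.

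**Figure D1:**
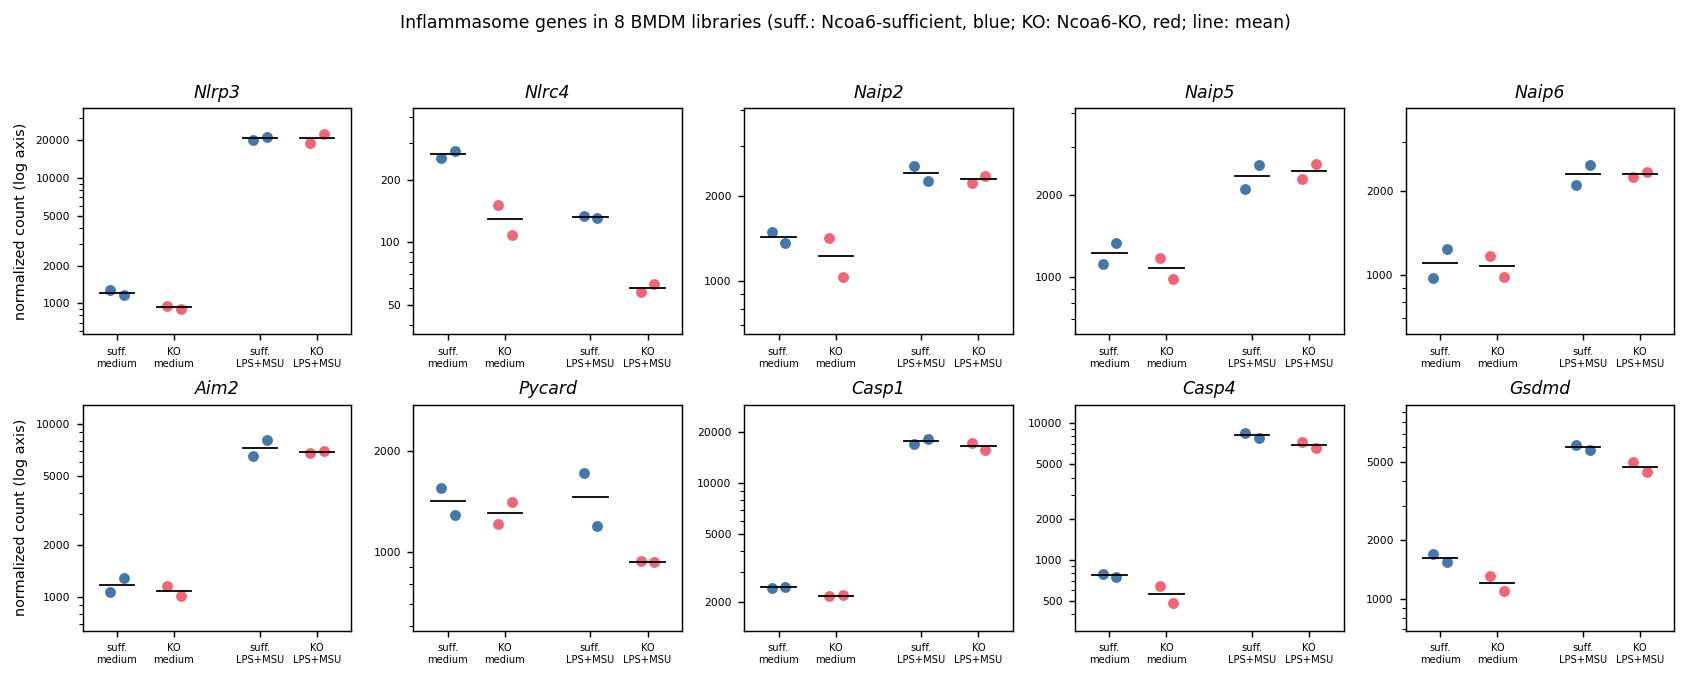
Normalized counts (log axis) of the 10 inflammasome genes in the 8 BMDM libraries, with 1 panel per gene, 1 point per library and a line at the mean of each group of 2. Nlrp3 was the gene with the widest gap between culture conditions, from 1268 or less in medium to 18998 or more after LPS + MSU. For Nlrc4, Casp4 and Gsdmd the Ncoa6-KO points lie below the Ncoa6-sufficient ones in both conditions.

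Nlrp3 (ENSMUSG00000032691, chromosome 11, 59541568 to 59566956 of GRCm38, forward strand) encodes the sensor that responds to potassium efflux, crystals and many other stresses. In medium its normalized counts were 1268 and 1155 in the Ncoa6-sufficient libraries against 958 and 901 in the Ncoa6-KO libraries, and after LPS + MSU they were 20048 and 21346 against 18998 and 22526. The 4 stimulated libraries lay far above the 4 unstimulated ones, and the genotypes were apart in medium and overlapped after LPS + MSU. The log2 fold change after LPS + MSU was 4.09 (SE 0.13, edgeR adjusted p = 1.09e-09) in Ncoa6-sufficient and 4.48 (SE 0.13, adjusted p = 6.36e-10) in Ncoa6-KO cells, the largest of the 10 genes in each genotype. In medium the Ncoa6-KO libraries were lower by a log2 fold change of -0.38 (95% interval -0.64 to -0.12), which did not pass the edgeR test over all genes (adjusted p = 0.154, unadjusted 0.00764) but passed without the count filter (adjusted p = 0.0415). After LPS + MSU the log2 fold change between genotypes was 0.0045 with an interval of -0.24 to 0.25, and the edgeR adjusted p was 1.00.

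Because Nlrp3 and Casp4 were the genes with the largest rises and Nlrc4 fell, the sequence upstream of these 3 genes is shown (RefSeq promoter windows on GRCm38.p6, 250 to 51 bases before the annotated start, 5′ to 3′ on the gene's strand). The capitals mark matches, on either strand, to the NF-kB consensus, the motif bound by the NF-kB dimers that LPS activates. Overlapping matches are joined. Nlrc4 has no capitals because it holds no match.
Nlrp3, chr11:59541319-59541518, forward strand: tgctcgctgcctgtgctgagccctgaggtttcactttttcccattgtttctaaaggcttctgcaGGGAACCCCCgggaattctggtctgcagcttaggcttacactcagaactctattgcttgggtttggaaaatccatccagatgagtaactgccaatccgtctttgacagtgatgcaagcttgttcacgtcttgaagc
Casp4, chr9:5308599-5308798, forward strand: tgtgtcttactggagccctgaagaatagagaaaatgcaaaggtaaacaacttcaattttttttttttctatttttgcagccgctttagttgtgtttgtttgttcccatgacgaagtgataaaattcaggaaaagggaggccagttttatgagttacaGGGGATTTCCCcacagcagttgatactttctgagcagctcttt
Nlrc4, chr17:74459159-74459358, reverse strand: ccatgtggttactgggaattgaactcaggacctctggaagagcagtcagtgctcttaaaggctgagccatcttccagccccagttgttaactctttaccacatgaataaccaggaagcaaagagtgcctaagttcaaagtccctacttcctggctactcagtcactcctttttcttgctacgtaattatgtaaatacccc
The match lay 186 to 177 bases before the start of Nlrp3 shown here, read on the opposite strand. The window of another annotated start of Nlrp3 (chromosome 11, 59542436 to 59542735) held no match to this motif. In Casp4, matches on both strands overlapped in a run from 93 to 83 bases before the start. In the 250 bases before each annotated start, searched on both strands, the NF-kB consensus matched in 3 of the 9 members with an entry (Casp4, Naip5 and Nlrp3), counting a gene if any of its windows held a match, and in 4.46% of 27025 genes counted in the same way. The 9 members have 11 such windows, and those of Casp4 overlap and hold the same matches. The interferon response motif (GAAA, 2 bases of any kind, GAAA) matched in 0 of 9 (3.46% of genes), the STAT motif (TTC, 3 bases of any kind, GAA) in 0 of 9 (8.13%) and the ETS motif GAGGAA in 4 of 9 (Aim2, Casp1, Nlrp3 and Pycard, 25.9%). Of the members without an NF-kB match, Casp1 (7.28-fold), Aim2 (6.22-fold), Naip6 (2.07-fold) and Naip2 (1.67-fold) rose in Ncoa6-sufficient BMDMs, and Nlrc4 and Pycard did not. Naip5, with a match, rose 1.92-fold there. Whether a match and a rise go together was not tested. A match is a description of these letters, and whether any protein binds there was not measured.

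Nlrc4 (ENSMUSG00000039193, chromosome 17, 74425438 to 74459142 of GRCm38, reverse strand) encodes the adaptor-like partner that NAIP proteins bring into the inflammasome after they bind a bacterial ligand. The Ncoa6-sufficient libraries held 253 and 275 normalized counts in medium and 133 and 131 after LPS + MSU. The Ncoa6-KO libraries held 150.2 and 108 in medium and 57.5 and 63.0 after LPS + MSU. The 4 groups did not overlap along either comparison, and the Ncoa6-KO libraries after LPS + MSU were the lowest of all. In Ncoa6-KO BMDMs Nlrc4 stood at 48.9% of the Ncoa6-sufficient mean in medium (log2 fold change -1.02, SE 0.17, edgeR adjusted p = 0.0178) and at 45.7% after LPS + MSU (-1.13, SE 0.21, adjusted p = 0.0187). LPS + MSU lowered it in both genotypes, by a log2 fold change of -1.0002 (SE 0.18, adjusted p = 6.03e-04) in Ncoa6-sufficient and -1.11 (SE 0.20, adjusted p = 7.82e-04) in Ncoa6-KO cells. Nlrc4 was the most thinly counted of the 10 genes, with 44.0 and 45.0 expected counts in the Ncoa6-KO libraries after LPS + MSU and 337 and 320.0 in the Ncoa6-sufficient libraries in medium. The difference between genotypes kept its direction without any 1 of the 8 libraries (log2 fold change -1.29 to -0.81 in medium and -1.20 to -1.08 after LPS + MSU). Its call was lost in medium without Ncoa6-sufficient library 1 (adjusted p = 0.154), Ncoa6-sufficient library 2 (0.113) or Ncoa6-KO library 2 (0.0766) of that condition. After LPS + MSU it was lost without Ncoa6-sufficient library 1 (0.123) or 2 (0.0528), without Ncoa6-KO library 1 (0.0744) or 2 (0.117), and with limma-voom (adjusted p = 0.0544).

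The NAIP proteins are the receptors of this arm: NAIP2 recognizes the rod protein of bacterial type III secretion systems, and NAIP5 and NAIP6 recognize flagellin. Their genes lie in a cluster on chromosome 13 (GRCm38, reverse strand), ENSMUSG00000078945 (Naip2) from 100144063 to 100202092, ENSMUSG00000071203 (Naip5) from 100211739 to 100246323 and ENSMUSG00000078942 (Naip6) from 100281121 to 100317674. They are close copies, which matters for how reads are shared among them. The first 120 coding bases of each are shown, from the GENCODE annotation, with the bases in capitals at the 43 positions where the 3 genes are not all alike.
Naip2: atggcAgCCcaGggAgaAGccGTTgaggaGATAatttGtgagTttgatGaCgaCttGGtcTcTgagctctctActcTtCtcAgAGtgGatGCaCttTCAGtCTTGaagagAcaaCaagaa
Naip5: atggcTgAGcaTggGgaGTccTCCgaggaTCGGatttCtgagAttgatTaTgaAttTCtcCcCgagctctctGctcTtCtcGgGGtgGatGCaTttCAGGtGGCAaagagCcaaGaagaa
Naip6: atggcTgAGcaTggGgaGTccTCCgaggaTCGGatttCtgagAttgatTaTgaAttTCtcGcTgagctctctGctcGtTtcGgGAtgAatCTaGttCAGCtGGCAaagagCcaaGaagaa
In this stretch Naip5 and Naip6 differ at 10 positions, Naip2 and Naip5 at 36, and Naip2 and Naip6 at 42. Over the whole coding sequence Naip5 and Naip6 are 97.0% identical, Naip2 and Naip5 90.0%, and Naip2 and Naip6 89.7%. Of all 100-base windows of the Naip5 transcript, 6.45% occur unchanged in Naip6, and 4.89% of those of Naip6 occur in Naip5, while at most 1.42% are shared with Naip2. RSEM divides reads that fit several genes by estimate. The expected counts of all 3 genes were not whole numbers in any of the 8 libraries, so each gene's count is uncertain to that extent.

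The 3 Naip genes rose by about 2-fold and showed no called difference between genotypes. Before stimulation Naip2 stood at 1495 and 1370.3 normalized counts in the Ncoa6-sufficient libraries against 1419.6 and 1041 in the Ncoa6-KO libraries, and after it at 2544 and 2256 against 2229.5 and 2356. For Naip5 the unstimulated libraries had 1112 and 1335 (Ncoa6-sufficient) against 1172 and 982 (Ncoa6-KO), and the stimulated ones 2106 and 2581 against 2280.5 and 2597. Naip6 had 978 and 1236 normalized counts (Ncoa6-sufficient) against 1167 and 986 (Ncoa6-KO) in medium, and 2110.0 and 2475 against 2243 and 2345 after LPS + MSU. For each of the 3 genes every stimulated library lay above every unstimulated one, and the genotypes overlapped in both conditions. The log2 fold change after LPS + MSU was 0.74, 0.94 and 1.05 for Naip2, Naip5 and Naip6 in Ncoa6-sufficient BMDMs (edgeR adjusted p at most 6.36e-04), and 0.90, 1.18 and 1.09 in Ncoa6-KO BMDMs (adjusted p at most 1.79e-04). Between genotypes the log2 fold changes were -0.22 (95% interval -0.51 to 0.079), -0.18 (-0.48 to 0.12) and -0.038 (-0.33 to 0.25) in medium. After LPS + MSU they were -0.066 (-0.36 to 0.23), 0.057 (-0.24 to 0.35) and 0.00076 (-0.29 to 0.29). The counts of the 3 genes summed, which removes the division of reads among them, gave log2 fold changes of -0.15 in medium and -0.0020 after LPS + MSU between genotypes, and 0.90 and 1.05 after LPS + MSU in Ncoa6-sufficient and Ncoa6-KO cells. Among the 8 genes that rose, Naip2 and Naip5 lost calls under another scaling. With library totals in place of TMM, Naip2 had a log2 fold change of 0.072 (edgeR adjusted p = 0.635) in Ncoa6-sufficient and 0.27 (0.0862) in Ncoa6-KO cells, and Naip5 had 0.27 (0.113) in Ncoa6-sufficient BMDMs.

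That alternative, added after seeing the data, matters for all comparisons between culture conditions, because the TMM factors lay between 1.23 and 1.29 for the libraries in medium and between 0.766 and 0.829 for those after LPS + MSU. With library totals the median log2 fold change of all genes after LPS + MSU was -0.78 in Ncoa6-sufficient and -0.71 in Ncoa6-KO cells, beside -0.12 and -0.073 with TMM. Calls in Ncoa6-sufficient BMDMs split into 2498 higher and 9653 lower with library totals, beside 4362 and 5375 with TMM, and in Ncoa6-KO BMDMs into 2540 and 9313, beside 4446 and 4913. Calls between genotypes after LPS + MSU split into 480 higher and 218 lower with library totals and 346 and 503 with DESeq2, beside 345 and 287. This change of scaling shifts all genes by nearly the same amount, so distances from the median gene stay nearly the same by construction: in Ncoa6-sufficient BMDMs, Nlrp3 stood 4.21 above it with TMM and 4.20 with library totals, Naip2 0.86 and 0.85 above it, and Nlrc4 was at -0.88 and -0.89, all on the log2 scale.

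Aim2 (ENSMUSG00000037860, chromosome 1, 173350879 to 173466040 of GRCm38, forward strand) encodes the sensor of double-stranded DNA in the cytosol. The Ncoa6-sufficient libraries held 1064 and 1283 normalized counts in medium and 6518 and 8063 after LPS + MSU. The Ncoa6-KO libraries held 1156 and 1017 in medium and 6772 and 6974 after LPS + MSU. All 4 stimulated libraries were several times higher than the unstimulated ones, and the genotypes overlapped in both conditions. The fitted rise was 6.22-fold in Ncoa6-sufficient (log2 fold change 2.64, SE 0.14, edgeR adjusted p = 2.92e-08) and 6.32-fold in Ncoa6-KO BMDMs (2.66, SE 0.14, adjusted p = 2.76e-08). The log2 fold change between genotypes was -0.11 (95% interval -0.40 to 0.18) in medium and -0.085 (-0.36 to 0.19) after LPS + MSU.

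**Figure D2:**
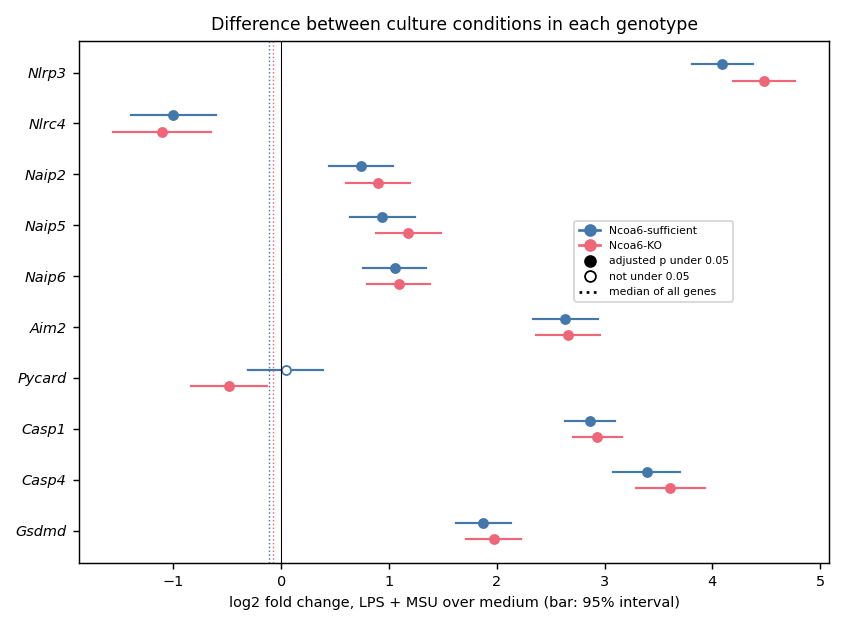
Log2 fold change after LPS + MSU over medium for the 10 genes in Ncoa6-sufficient (blue) and Ncoa6-KO (red) BMDMs, with 95% intervals from edgeR. Filled points had an adjusted p under 0.05 and dotted lines mark the median of all genes. Nlrp3, Casp4, Casp1 and Aim2 lay above 2.6 in both genotypes, and Nlrc4 near -1.

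Pycard (ENSMUSG00000030793, chromosome 7, 127989708 to 127993867 of GRCm38, reverse strand) encodes ASC, the adaptor that links NLRP3 and AIM2 to caspase-1. In medium its normalized counts were 1548 and 1287 in the Ncoa6-sufficient libraries against 1212 and 1409 in the Ncoa6-KO libraries, and after LPS + MSU they were 1719 and 1195 against 942 and 930.4. In medium the genotypes overlapped. After LPS + MSU both Ncoa6-KO libraries lay below both Ncoa6-sufficient ones, which were themselves far apart. In Ncoa6-sufficient BMDMs Pycard had a log2 fold change of 0.040 after LPS + MSU (SE 0.16, edgeR adjusted p = 0.852), and it was the only one of the 10 genes without a call there. In Ncoa6-KO BMDMs it fell by 0.48 on the log2 scale (SE 0.16, adjusted p = 0.0242), a call that was lost without Ncoa6-KO library 2 in medium (adjusted p = 0.124) and without Ncoa6-KO library 1 (0.0849) or 2 (0.0997) of LPS + MSU. With library totals in place of TMM it was called lower in Ncoa6-sufficient BMDMs too (-0.63, edgeR adjusted p = 0.00293). Between genotypes after LPS + MSU the log2 fold change was -0.64 (95% interval -0.99 to -0.28, adjusted p = 0.0579), just outside the threshold. It passed with DESeq2 (adjusted p = 0.00504), with DESeq2's size factors in edgeR (0.0474), and without the count filter (2.92e-06). Leaving out the higher Ncoa6-sufficient library took the value to -0.36 (adjusted p = 0.408), and leaving out the lower one took it to -0.89 (0.0171). Expected counts of Pycard were not whole numbers in any library.

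Both caspase genes lie next to each other on chromosome 9 of GRCm38, ENSMUSG00000025888 (Casp1) from 5298517 to 5307265 and ENSMUSG00000033538 (Casp4) from 5308828 to 5336783, both on the forward strand. Caspase-1 is the protease of the canonical inflammasome. Casp4 encodes the protease known in mice as caspase-11, which binds LPS in the cytosol and cleaves gasdermin D without a sensor. Before stimulation Casp1 stood at 2423 and 2435 normalized counts in the Ncoa6-sufficient libraries against 2156 and 2181 in the Ncoa6-KO libraries, and after it at 17172 and 18203 against 17276 and 15841. Replicates of Casp1 were close together, and in medium the Ncoa6-KO libraries lay just below the Ncoa6-sufficient ones. Casp4 had 794 and 756 normalized counts (Ncoa6-sufficient) against 651 and 486 (Ncoa6-KO) in medium, and 8506 and 7769 against 7328 and 6599.5 after LPS + MSU. Casp4 was lower in the Ncoa6-KO libraries in both conditions, without overlap. After LPS + MSU, Casp1 rose by a log2 fold change of 2.86 (SE 0.10, edgeR adjusted p = 2.42e-09) in Ncoa6-sufficient and 2.93 (SE 0.10, adjusted p = 2.11e-09) in Ncoa6-KO cells. Casp4 rose more, by 3.39 (SE 0.14, adjusted p = 5.99e-09) and 3.61 (SE 0.14, adjusted p = 4.40e-09). Between genotypes neither gene was called. Casp1 had log2 fold changes of -0.16 (95% interval -0.38 to 0.052) in medium and -0.10 (-0.31 to 0.12) after LPS + MSU. Casp4 had -0.44 (-0.74 to -0.15, adjusted p = 0.149) and -0.22 (-0.51 to 0.056, adjusted p = 0.411). Casp4 was called in medium without the count filter (edgeR adjusted p = 0.00724) and without Ncoa6-KO library 1 of that condition (-0.67, adjusted p = 0.0265).

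Gsdmd (ENSMUSG00000022575, chromosome 15, 75862327 to 75867408 of GRCm38, forward strand) encodes gasdermin D, the pore protein that both caspases cleave. The Ncoa6-sufficient libraries held 1704 and 1546 normalized counts in medium and 6140.1 and 5787 after LPS + MSU. The Ncoa6-KO libraries held 1314 and 1099 in medium and 5011 and 4453 after LPS + MSU. The Ncoa6-KO libraries lay below the Ncoa6-sufficient ones in both conditions without overlap, at 74.2% and 79.3% of their means. The log2 fold change after LPS + MSU was 1.88 (SE 0.11, edgeR adjusted p = 1.07e-07) in Ncoa6-sufficient and 1.97 (SE 0.12, adjusted p = 8.19e-08) in Ncoa6-KO cells. Between genotypes it was -0.43 (SE 0.11, adjusted p = 0.0929) in medium and -0.33 (SE 0.11, adjusted p = 0.141) after LPS + MSU, and neither passed the threshold. DESeq2 called the value in medium (adjusted p = 0.0455), and edgeR without the count filter called it in medium (0.00619) and after LPS + MSU (0.0496). Averaging the difference between genotypes over both conditions was a fit added after seeing the data. It took all 8 libraries as independent, and no source says whether the conditions share mice. This fit called 8.3% of all genes in either direction and 4.59% as lower in Ncoa6-KO BMDMs. It gave 2 of the 10 inflammasome genes as lower and 0 as higher, Nlrc4 (log2 fold change -1.08, SE 0.14, adjusted p = 0.00148) and Gsdmd (-0.38, SE 0.079, adjusted p = 0.0146). Casp4 (-0.33, adjusted p = 0.0506) and Pycard (-0.38, adjusted p = 0.0656) stood just outside the threshold, and Nlrp3 had -0.19 (adjusted p = 0.202).

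**Figure D3:**
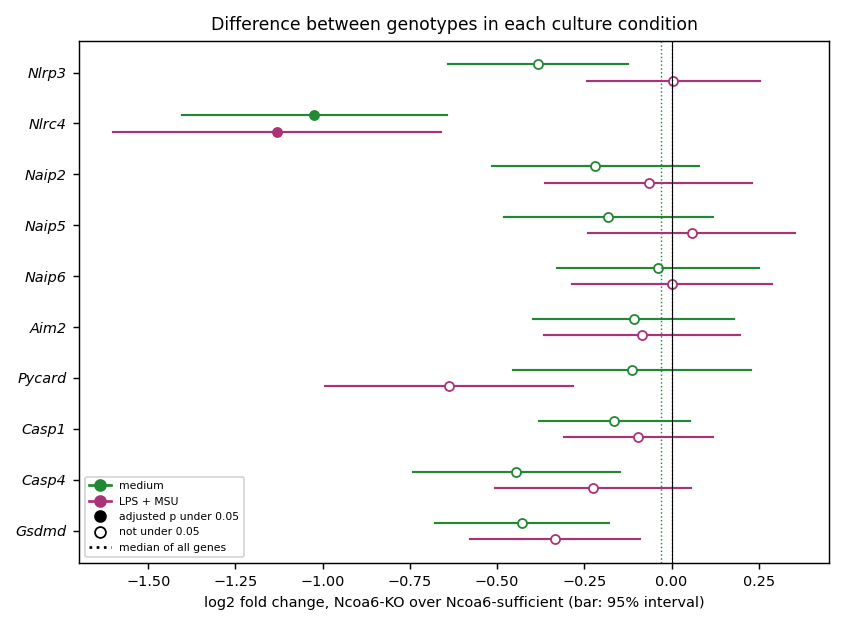
Log2 fold change of Ncoa6-KO over Ncoa6-sufficient BMDMs for the 10 genes in medium (green) and after LPS + MSU (purple), with 95% intervals from edgeR. Filled points had an adjusted p under 0.05, and only Nlrc4 is filled, at -1.02 and -1.13.

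Whether the response to LPS + MSU differed between genotypes was tested with the interaction term of the same fit. None of the 10 genes was called by edgeR (adjusted p from 0.808 to 1.00), as was the case for all 17625 genes tested (0%). At an unadjusted p under 0.05 there were 2 of the 10, Nlrp3 (0.39, SE 0.16, unadjusted p = 0.0367 from edgeR) and Pycard (-0.52, SE 0.22, unadjusted p = 0.0392 from edgeR), against 5.93% of all genes. DESeq2 and limma-voom also called 0 of the 10, while DESeq2 called 43 genes in all and limma-voom 0. A positive value means a larger rise in Ncoa6-KO BMDMs. Nlrp3 lay lower in these cells in medium and overlapped with the Ncoa6-sufficient libraries after LPS + MSU. For Nlrc4 the interaction was -0.11 (95% interval -0.71 to 0.49), so the size of its difference between genotypes was not shown to depend on the condition.

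The sensor arms were then set against each other within each library, as log2 ratios of CPM, which do not depend on how libraries are scaled. These ratios compare changes, not molar amounts, since the genes differ in length. Nlrp3 over the geometric mean of Nlrc4, Naip2, Naip5 and Naip6 was 0.66 and 0.38 in the Ncoa6-sufficient libraries against 0.38 and 0.65 in the Ncoa6-KO libraries in medium, and 4.18 and 4.19 against 4.40 and 4.53 after LPS + MSU. Nlrp3 over Aim2 was 0.25 and -0.15 (Ncoa6-sufficient) against -0.27 and -0.17 (Ncoa6-KO) in medium, and 1.62 and 1.40 against 1.49 and 1.69 after LPS + MSU. Nlrp3 over Nlrc4 was 2.33 and 2.07 against 2.67 and 3.06 in medium, and 7.24 and 7.35 against 8.37 and 8.48 after LPS + MSU. Every stimulated library had higher ratios than every unstimulated one, so the balance among sensor transcripts moved towards Nlrp3 in both genotypes. The mean shift with LPS + MSU was 3.81 against the NAIP/NLRC4 arm, 1.64 against Aim2 and 5.33 against Nlrc4 on the log2 scale. An exact two-sided permutation test, which exchanged the culture condition within genotype over 36 arrangements, gave p = 0.0556 for each, the smallest value that this design allows. Between genotypes, the ratio of Nlrp3 to Nlrc4 was higher in Ncoa6-KO BMDMs without overlap in both conditions. This restates the lower Nlrc4 described above and is no separate result. Nlrc4 had log2 fold changes of -1.02 in medium and -1.13 after LPS + MSU, while Nlrp3 had -0.38 and 0.0045. The difference in the ratio was 0.67 in medium and 1.13 after LPS + MSU (exact permutation p = 0.0556, again the smallest possible). For this, genotype was exchanged within each condition separately, which takes all 8 libraries as independent. No source says whether the conditions share mice, and if they do, the smallest possible p is larger. The ratio to the whole NAIP/NLRC4 arm differed by -0.0047 and 0.28 (exact p = 0.333), and that to Aim2 by -0.27 and 0.077 (exact p = 0.611). Over the 6 tests the Benjamini-Hochberg adjusted values were 0.0833 for the 4 at the smallest p, 0.400 and 0.611.

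**Figure D4:**
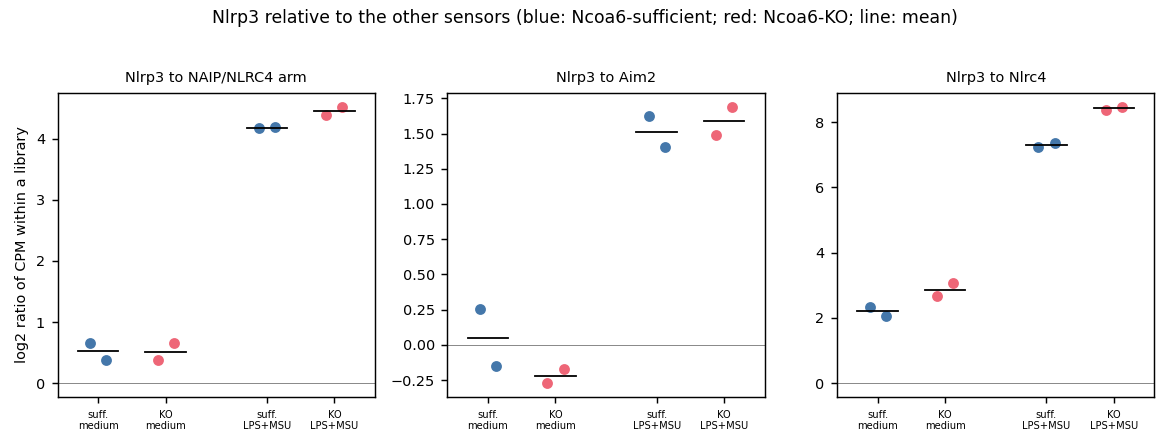
Log2 ratio of Nlrp3 CPM to the geometric mean CPM of the NAIP/NLRC4 genes, to Aim2 and to Nlrc4 within each of the 8 libraries, with 1 point per library and a line at the group mean. The axes differ between panels. In the right panel the Ncoa6-KO libraries lie above the Ncoa6-sufficient ones in both conditions, at 8.37 and 8.48 against 7.24 and 7.35 after LPS + MSU.

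Levels can be set in order across genes only per length, and CPM per kb of the annotated principal mRNA (mean ± SD, n = 2 libraries) was used for this. In Ncoa6-sufficient BMDMs in medium, Casp1 was highest at 55.3 ± 0.190, followed by Gsdmd at 30.9 ± 2.13 and Casp4 at 18.4 ± 0.637. Aim2 (14.1 ± 1.86) and Pycard (12.7 ± 1.65) followed and overlapped, as did Nlrp3 (10.3 ± 0.674) and Naip2 (10.1 ± 0.623) after them. Naip5 (8.02 ± 1.03), Naip6 (5.53 ± 0.912) and Nlrc4 (1.90 ± 0.114) were lowest and apart from each other. After LPS + MSU the order in Ncoa6-sufficient BMDMs was Casp1 at 403 ± 16.6, Casp4 at 193 ± 12.4, Nlrp3 at 175 ± 7.78, Gsdmd at 113 ± 4.75 and Aim2 at 87.6 ± 13.1, each apart from the next. Naip2, Naip5, Pycard and Naip6 lay far below, between 11.4 ± 1.29 and 17.0 ± 1.44, with each overlapping the next, and Nlrc4 was at 0.951 ± 0.0111. At the lengths taken, Nlrp3 thus moved from the sixth place among the 10 to the third, and Pycard from the fifth to the eighth. In Ncoa6-KO BMDMs Nlrp3 went from the seventh place (7.88 ± 0.342) to the second (176 ± 21.1), where it overlapped Casp4 (165 ± 12.2), and Nlrc4 was last in both conditions (0.931 ± 0.215 and 0.434 ± 0.0278). The annotated Pycard mRNA is 3800 bp long and covers most of its gene, which spans 127989708 to 127993867. The level of Pycard per kb would be higher with a shorter transcript. Its places in the order, and its standing beside the Naip genes after LPS + MSU, therefore depend on the length taken. Casp4 was taken at 1435 bp, while its exons cover 3710 bp over 7 transcripts. Its level per kb would be lower with a longer transcript, so its place in the order depends on the length taken.

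Of 36 other genes of inflammasome signalling, 33 could be tested, and Nlrp6, Nlrp9b and Nlrp12 were too low. After LPS + MSU, 22 were higher and 8 lower in Ncoa6-sufficient BMDMs (24.7% and 30.5% of all genes), and 23 and 8 in Ncoa6-KO BMDMs (25.2% and 27.9%). Between genotypes, 6 were lower in Ncoa6-KO BMDMs and 0 higher in medium (1.3% and 0.573% of all genes), and 4 were lower and 1 higher after LPS + MSU (1.63% and 1.96%). Their median log2 fold change between genotypes was -0.26 in medium and -0.24 after LPS + MSU, beside -0.032 and 0.00039 for all genes. By edgeR's interaction test 0 were called, with 8 at an unadjusted p under 0.05, against 5.93% of all genes. The list was put together with earlier results of these data known.

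Of the substrates and inhibitors, Il1b, the precursor of IL-1β, was barely counted in medium (18.8 and 15.5 in Ncoa6-sufficient, 6.95 and 3.51 in Ncoa6-KO cells) and was at 31995 and 29707 against 18367 and 18637 after LPS + MSU. It was lower in Ncoa6-KO BMDMs in both conditions, by a log2 fold change of -1.65 (edgeR adjusted p = 0.0398) and -0.74 (0.00744). Il1a, the related cytokine IL-1α, was also barely counted in medium (24.0 and 20.6 in Ncoa6-sufficient, 8.34 and 7.90 in Ncoa6-KO cells). It differed by -1.45 (edgeR adjusted p = 0.0388) in medium and -0.92 (0.00315) after LPS + MSU. Il1rn, the receptor antagonist that blocks both, was called lower after LPS + MSU (-1.34, adjusted p = 0.0157) and had -0.55 (0.386) in medium. Il18, the other cytokine precursor cleaved by caspase-1, was at 2857 and 2957 in Ncoa6-sufficient and 2392 and 2285 in Ncoa6-KO cells after LPS + MSU, and had log2 fold changes of -0.57 (adjusted p = 0.0610) and -0.31 (0.137) between genotypes.

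All 3 GTPases of the list, which attack the membranes around bacteria and give AIM2 and caspase-11 access to bacterial DNA and LPS, were lower in Ncoa6-KO BMDMs in medium. The log2 fold changes were -1.17 for Gbp2 (edgeR adjusted p = 0.0301), -1.47 for Gbp5 (0.0132) and -1.50 for Irgb10 (0.0171). After LPS + MSU, when they had risen by 6.63, 8.30 and 4.51 in Ncoa6-sufficient BMDMs, the values between genotypes were -0.45, -0.24 and -0.34, with adjusted p of 0.313, 0.552 and 0.418. Among the priming genes, the LPS co-receptor Cd14 was lower in medium (-0.78, adjusted p = 0.0298) and had -0.051 (0.905) after LPS + MSU.

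Of the other sensors, Nlrp1a was lower in Ncoa6-KO BMDMs after LPS + MSU (155 and 117 against 66.7 and 82.5 normalized counts, log2 fold change -0.87, edgeR adjusted p = 0.0374) and had -0.41 (0.286) in medium. Its neighbour in the family Nlrp1b showed no called difference between genotypes (0.16 and -0.0089), and LPS + MSU lowered it by a log2 fold change of -1.96 in Ncoa6-sufficient and -2.13 in Ncoa6-KO cells. Naip1, the receptor for the needle protein of secretion systems, was close to the counting limit, with 43.3 and 42.2 expected counts in Ncoa6-sufficient and 39.1 and 12.1 in Ncoa6-KO libraries in medium and no more than 3.07 in any library after LPS + MSU, and reads shared with its relatives make it uncertain. The 7 partners and regulators of NLRP3 gave no call between genotypes in either condition, where 1.88% and 3.59% of all genes were called. Among them, Nek7, a kinase that binds NLRP3, had 0.066 (95% interval -0.13 to 0.26) and 0.15 (-0.052 to 0.35). Txnip, a redox protein that binds NLRP3, had -0.16 and -0.26. Trim30a, of the same 7 genes, had -0.73 in medium (edgeR adjusted p = 0.0514), just outside the threshold, and -0.26 (0.463) after LPS + MSU. The 6 caspases and executioners gave no call between genotypes either. Panx1, the channel that releases ATP, was the 1 gene of the list that was higher in Ncoa6-KO BMDMs, at 546 and 595 against 277 and 297 after LPS + MSU (log2 fold change 0.99, adjusted p = 0.00191), while it had 0.11 (0.697) in medium.

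With 1 library left out, every log2 fold change called between genotypes in this list kept its direction, and the calls of Panx1 and Il1a after LPS + MSU held without any 1 of the 8 libraries. Without Ncoa6-sufficient library 1 in medium all 6 calls there were lost (edgeR adjusted p = 0.152 for Gbp5 to 0.367 for Il1b), and without Ncoa6-sufficient library 2 all but that of Irgb10 were (0.0682 for Gbp2 to 0.106 for Il1a). Without Ncoa6-KO library 2 in medium, Cd14, Gbp2, Il1a and Il1b lost their calls (0.134 for Cd14 to 0.175 for Il1b), and without Ncoa6-KO library 1 Il1a did (0.123). In medium Cd14 and Il1b were also not called without any 1 of the 4 libraries of LPS + MSU (0.0514 for Cd14 to 0.0702 for Il1b), nor Il1a without Ncoa6-sufficient library 1 (0.0608) or 2 (0.0631) of that condition. After LPS + MSU, the calls of Il1b and Il1rn were lost without Ncoa6-sufficient library 1 (0.0697 and 0.136) or Ncoa6-KO library 2 (0.0853 and 0.176). Nlrp1a was not called without either of these (0.280 and 0.132), without Ncoa6-KO library 1 (0.153), or without Ncoa6-sufficient library 1 (0.0756) or 2 (0.0743) in medium. With limma-voom, Il1b (adjusted p = 0.109) and Il1a (0.164) in medium and Nlrp1a after LPS + MSU (0.0823) were not called. A fit of only the 4 libraries compared also lost them (0.169, 0.143 and 0.105) and Cd14 in medium (0.0525), and library totals lost Il1a in medium (0.0501).

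**Figure D5:**
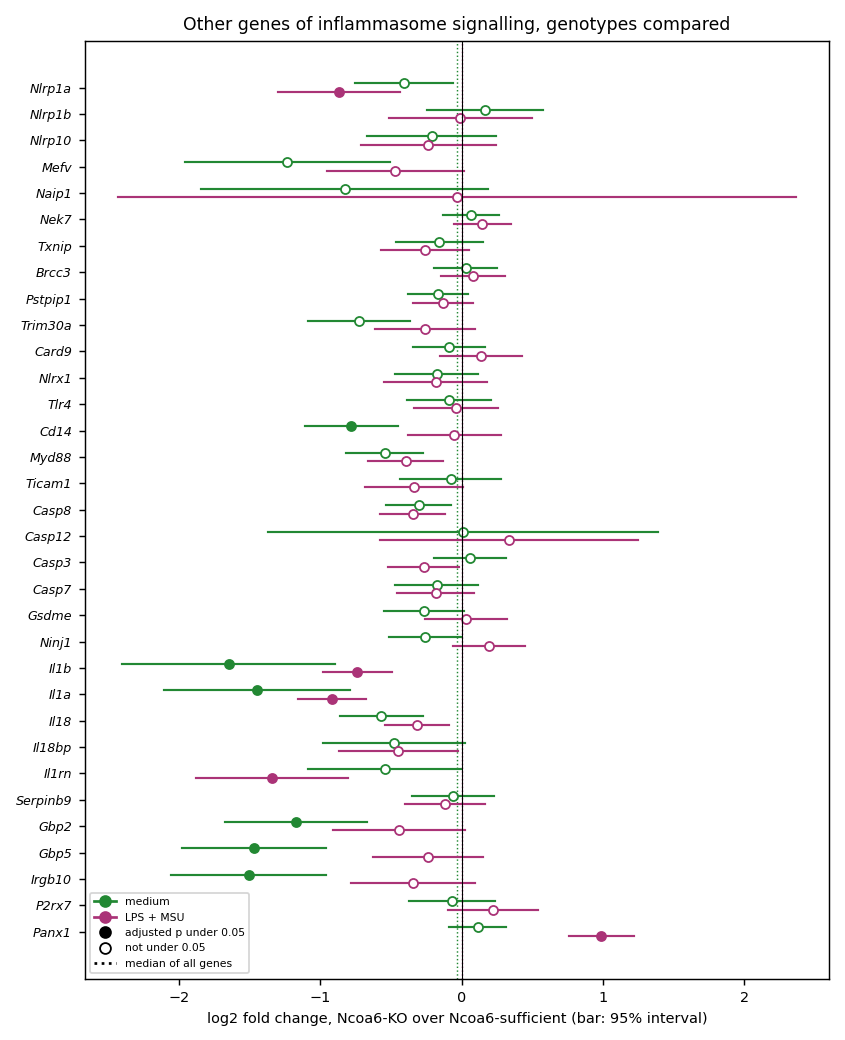
Log2 fold change of Ncoa6-KO over Ncoa6-sufficient BMDMs for the 33 tested genes of the inflammasome list in medium (green) and after LPS + MSU (purple), with 95% intervals from edgeR and filled points for an adjusted p under 0.05. Of the filled points, Panx1 is the only one above 0. The widest interval belongs to Naip1, which had few counts.

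The genes whose pattern over the 8 libraries was most like that of 4 of the members were found by the root mean square difference of centred log2 values, among 11219 genes averaging 50 normalized counts or more. For Nlrp3 they were Nod2 (0.11), Daxx (0.13) and Jdp2 (0.14). For Nlrc4 they were Gngt2 (0.19), Gpr65 (0.22) and Tgfbi (0.23). Each was lower in Ncoa6-KO BMDMs in both conditions and lower after LPS + MSU in both genotypes. These directions follow from the choice by likeness to Nlrc4 and are no separate result. For Aim2 they were Azi2 (0.11), Etohd2 (0.11) and Trim26 (0.11), and for Pycard Ccnd3 (0.13), Fbxo28 (0.14) and Gm28036 (0.14). The likeness rests on 8 libraries in 4 groups and says nothing of a shared function.

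Overlapping annotation touches 4 of the members. Nlrc4 overlaps CT033749.1 and Naip2 overlaps Gm18413 on the same strand, Aim2 overlaps Cadm3 and Pycard overlaps Gm45205 on the opposite strand. In no library did these genes pass 9.46 normalized counts, and the library kit marks the strand.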

How the data were processed

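The authors isolated poly(A) RNA, made stranded libraries, sequenced paired reads of 100 bp, aligned them with STAR 2.7.3a to GRCm38 (annotation release 101) and estimated counts per gene with RSEM 1.3.3. What was deposited is the table of RSEM's expected counts without any scaling (50615 genes, 8 libraries). RSEM divides reads shared by similar genes, so counts of close paralogs depend on its estimate.

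Expected counts were rounded, and genes with a sum under 10 were left out. The 4 groups were fitted together in edgeR 4.0.16 (R 4.3.3) with TMM scaling and the quasi-likelihood test. There were 4 residual degrees of freedom and a median of 6.77 prior ones drawn from other genes. The median biological coefficient of variation was 0.114. Every p-value of a single gene came from this main fit unless an alternative is named. The alternatives were other edgeR fits, DESeq2 1.42.0 or limma-voom (limma 3.58.1). Benjamini-Hochberg adjustment ran over the genes tested in each fit, 17625 in the main fit, and DESeq2 applied its own filter first. The threshold was 0.05. The study's methods name DESeq2, which was run as an alternative. Ratios within libraries were tested by exact permutation, and 2 libraries against 2 cannot give a p below 0.333. The quasi-likelihood test gives no SE, so each SE was derived as the absolute log2 fold change over the square root of its F statistic. The 95% intervals are approximate, from this SE and a t quantile with the fit's degrees of freedom.

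The members and lists were chosen with earlier results of these data known. The text names the 10 members, Ncoa6, the genes of the pathway list called between genotypes, Il1b, Il18, Nek7, Naip1, Nlrp1b and Txnip. It also names the 3 genes most like each of 4 members and the genes that overlap a member in the annotation. Markers stand as lists, with those at 0 by name. The macrophage and neutrophil markers, Kdr and Trim30a were picked out by name after their values were seen. Gene positions, lengths and coding sequences came from GENCODE vM21 and promoters from RefSeq on GRCm38.p6, with an entry for 9 of the 10 members. Code was tested on simulated counts with known changes. The alternatives were other tools, scalings and filters, a replicate term, only the libraries compared, summed Naip counts, and leaving out each library.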

Additional observations from a re-analysis of the deposited data

How the results depend on the processing

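Over the alternatives other than leaving out a library, 676 values of the members, ratios and named genes kept their direction and their side of the threshold, 44 gained a call, 12 lost one and 19 changed sign. As each library was left out, 546 were kept, 3 gained a call, 46 lost one and 21 changed sign. The cause of these changes was not tested. The counts of members that follow stand beside these calls over all genes between genotypes. The main fit called 331 of 17625 in medium and 632 after LPS + MSU. Without the count filter these were 1152 and 1611 of 24645, with DESeq2 496 and 849, and with the averaged effect 1463. After LPS + MSU, DESeq2's size factors in edgeR gave 638 and limma-voom 441. In medium, 1 member was called between genotypes, and 2 were with DESeq2 and 2 with the effect averaged over both conditions (Nlrc4 and Gsdmd), 4 without the count filter, and 0 to 2 without 1 library. After LPS + MSU, 1 was called, and 2 were with DESeq2, 2 with its size factors in edgeR, 2 with the averaged effect, 3 without the filter, 0 with limma-voom, and 0 to 2 without 1 library.

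A replicate term shared by all 4 groups gave 4 called members in medium and 3 after LPS + MSU, where 1023 and 1532 of 17625 genes were called. For the interaction, the term within genotype gave 1 (Pycard, -0.51, edgeR adjusted p = 0.0205), where 444 genes were called. Between genotypes it gave 5 called members in medium and 3 after LPS + MSU, where 1530 and 2000 genes were called. Beside Nlrc4, these were Nlrp3 (adjusted p = 0.0433 and 0.00561 with the shared term and within genotype), Casp4 (0.0124 and 0.0164), Gsdmd (0.00522 and 0.00595) and, within genotype, Pycard (0.0265) in medium, and Pycard (-0.63 and -0.87, adjusted p = 0.00947 and 1.85e-06) and Gsdmd (0.0160 and 0.0362) after LPS + MSU. Deviations of same-numbered libraries correlated at 0.257 and 0.334 within genotype and 0.033 to 0.188 across genotypes, over 11219 genes. With only 2 libraries a group and no source that says what the numbers share, they were not used as pairs.

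Log2 fold changes near 0 changed sign. In medium, Naip6 had 0.15 and Aim2 0.072 with the replicate term within genotype, and without 1 library Naip6 ran from -0.20 to 0.14, Aim2 from -0.24 to 0.032 and Pycard from -0.24 to 0.026. After LPS + MSU, Nlrp3 between genotypes had -0.19 with the averaged effect, -0.033 with DESeq2 and with its size factors, -0.053 with the replicate term within genotype, and -0.13 to 0.10 without 1 library. Naip2 had 0.0081 with library totals and -0.16 to 0.012 without 1 library, Naip5 -0.062 with the averaged effect and -0.093 to 0.20, Naip6 -0.019 with the averaged effect, -0.036 with DESeq2 and with its size factors and -0.12 to 0.11, and Aim2 0.10 with the replicate term within genotype and -0.24 to 0.064. Pycard after LPS + MSU over medium in Ncoa6-sufficient BMDMs had -0.63 with library totals and -0.20 to 0.33 without 1 library, and the interaction of Nlrc4 ran from -0.32 to 0.16. Of the pathway genes, Nlrp1b after LPS + MSU had 0.077 with the averaged effect, 0.17 with the replicate term within genotype and 0.063 with library totals, and -0.32 to 0.30 without 1 library, Cd14 had 0.0054 with that replicate term, 0.020 with library totals and -0.14 to 0.014, and in medium Nlrp1b ran from -0.021 to 0.37 and Txnip from -0.41 to 0.060. The difference between genotypes in the ratio of Nlrp3 to the NAIP/NLRC4 arm was -0.080 with summed arm counts, and in that to Aim2 it ran from -0.20 to 0.0025 without 1 library.

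Of all genes, 331 were called in medium, against 1152 without the filter, 1023 and 1530 with the replicate term, 1463 averaged, and 22, 81 and 103 without Ncoa6-sufficient library 1 or 2 or Ncoa6-KO library 2 in medium. After LPS + MSU 632 were called, against 1611, 1532, 2000 and 1463, 347 with only the 4 libraries, and, of that condition, 49 without Ncoa6-sufficient library 1, 417 without library 2 and 63 without Ncoa6-KO library 2, with 355 and 359 without Ncoa6-sufficient library 1 or 2 in medium. The interaction called 0, against 43 with DESeq2, 269 without the filter, 86 and 444 with the replicate term, and 0 to 16 without 1 library. Where a library was left out, the remaining one of its group is assumed to vary like the others.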
